A study of Mus musculus with 45 samples.

Results

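Metabotropic glutamate receptor transcripts were examined in the adult brain of Shank3-mutant mice, through the 6 genes Grm2, Grm3, Grm4, Grm5, Grm7 and Grm8. They were taken by symbol from a deposited table of 18135 genes, in which all 6 were found. Tissue labelled prefrontal cortex, hippocampus and striatum came from C57BL/6J males of 13 weeks that were wild-type (WT), heterozygous (Shank3-HT) or homozygous (Shank3-HM), in 9 groups of 5, or 45 samples. The mutant allele lacks exons 14 to 16 of Shank3, a postsynaptic scaffold gene, and the labels call the homozygotes knock-out. Tissue was bulk, so fewer cells of a type and less RNA per cell cannot be told apart.

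Metabotropic glutamate receptors are G protein-coupled receptors that tune synapses more slowly than the ion channel receptors for glutamate. The group I receptor analysed here, encoded by Grm5, is mainly postsynaptic, signals through Gq, phospholipase C and calcium, and is tied to the SHANK proteins through the HOMER scaffold. Grm2 and Grm3 (group II) and Grm4, Grm7 and Grm8 (group III) signal through Gi/o, lower cyclic AMP and often sit on axon terminals, where they restrain transmitter release, while Grm3 is also found in astrocytes.

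In the GRCm38 annotation the genes lie on 5 chromosomes, Grm2 at chr9:106643095-106656082 and Grm3 at chr5:9485541-9725170, both on the minus strand. Grm4 is at chr17:27422387-27521403 (minus), Grm5 at chr7:87584168-88134907 (plus), Grm7 at chr6:110645581-111567230 (plus) and Grm8 at chr6:27275119-28135178 (minus). Their longest coding transcripts run from 3049 bases (Grm3) to 8047 bases (Grm5). Of the genes that overlap them, Gm44846 and Gm44847 (Grm5, same strand) and Gm20387 (Grm7, opposite strand) were also in the table, and reads of the same-strand pair may be split with Grm5.

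The group II pair went opposite ways in the striatum, and the 250 bases before each RefSeq start (GRCm38.p6) are shown for that reason. Capitals mark the GC box GGGCGG, sought on both strands, whose letters SP1-type factors are known to bind.
Grm2, chr9:106656110-106656359, minus strand: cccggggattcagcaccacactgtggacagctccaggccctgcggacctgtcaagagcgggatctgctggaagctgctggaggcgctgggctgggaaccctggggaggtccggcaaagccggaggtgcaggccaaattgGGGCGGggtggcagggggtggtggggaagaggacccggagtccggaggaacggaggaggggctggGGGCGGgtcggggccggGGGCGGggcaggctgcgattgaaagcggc
Grm3, chr5:9725353-9725602, minus strand: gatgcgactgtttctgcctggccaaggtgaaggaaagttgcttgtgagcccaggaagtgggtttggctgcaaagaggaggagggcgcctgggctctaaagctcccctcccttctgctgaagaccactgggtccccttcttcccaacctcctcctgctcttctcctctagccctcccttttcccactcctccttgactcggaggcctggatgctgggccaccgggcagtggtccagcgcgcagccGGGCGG
The Grm2 window held 3 GC boxes, 71.2% G+C and 16 CG dinucleotides. The Grm3 window held 1 box, 62.4% G+C and 8 CG dinucleotides. Of 32851 windows of this length, 32.7% held at least 1 box, with medians of 52.4% G+C and 6 CG dinucleotides. Grm7, higher in WT striatum than in WT cortex, had 1 box in each of its windows in this set. Grm8, lower there, had windows with 1, 0 and 0 boxes, the first with 29 CG dinucleotides. The part of these windows in the regional levels was not tested.

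Values are the authors' normalized counts, and sequencing depth is not known from them. The labelled regions were checked by marker genes. All 14 markers of striatal spiny projection neurons were higher in WT striatum than in WT cortex (limma, adjusted p under 0.05), with summed levels of 230040 to 310540 against 10105 to 11597. The 12 cortical projection neuron markers summed to 23402 to 25555 in WT cortex, 10558 to 12406 in hippocampus and 7145.9 to 9914.8 in striatum. The 11 hippocampal pyramidal neuron markers summed to 21370 to 25670 in WT hippocampus, 6552.4 to 7499.1 in cortex and 7495.2 to 9103.7 in striatum. Sums of the 10 dentate granule neuron markers overlapped between WT hippocampus (17678 to 21228) and striatum (17140 to 19867). Shank3 fell to 50.6%, 47.8% and 46.6% of the WT mean in HM cortex, hippocampus and striatum, and HT means were 76.7%, 74.1% and 70.8%. The ranges of the 3 genotypes did not overlap in any region. By limma over all genes Shank3 was called in HT and HM of each region except cortex HT (log2 difference -0.38, adjusted p = 0.288), and the gene-level values do not resolve exons. The paper, with DESeq2, lists Shank3 as downregulated in HT and HM of every region, cortex HT included. A change of this size could thus go uncalled by limma in the cortex.

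Several libraries stood apart in their marker genes. In striatum HT replicate 5 the 10 choroid plexus markers summed to 71749, against 501 to 1665 in the other 14 striatal samples. In cortex HM replicate 2 the striatal markers summed to 66465, against 9571.9 to 12011 in the other 14 cortex samples, and 14 of 14 were above all of these. The 12 markers of cortical projection neurons summed to 14921, against 20750 to 25831, with 6 of 12 below all of the other cortex samples and 1 above all of them. Of the receptor genes, Grm2 (562.9 against 1070.2 to 1577.8) and Grm8 (241 against 349 to 620) lay below the other cortex samples. Grm4 (1194.2 against 513 to 665) and Grm5 (6094.9 against 3758.9 to 5169.8) lay above them. Each of these 4 departures was in the direction of the WT striatum, while Grm3 and Grm7 were inside the range of the other samples. Differences of cortical HM samples from WT are therefore given with and without it. The SEs and intervals of cortical HT differences also rest on a spread that takes in this library. In cortex HT replicate 3 the choroid plexus markers summed to 1204.5, against 830 in cortex HM replicate 2 and 78.6 to 272 in the other 13 cortex samples, and its oligodendrocyte markers, at 115790, were the highest of the cortex (71150 to 105720 in the others). This library had the lowest cortical Grm5 (3758.9) and the lowest Grm2 of the HT cortex (1070.2).

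**Figure D1:**
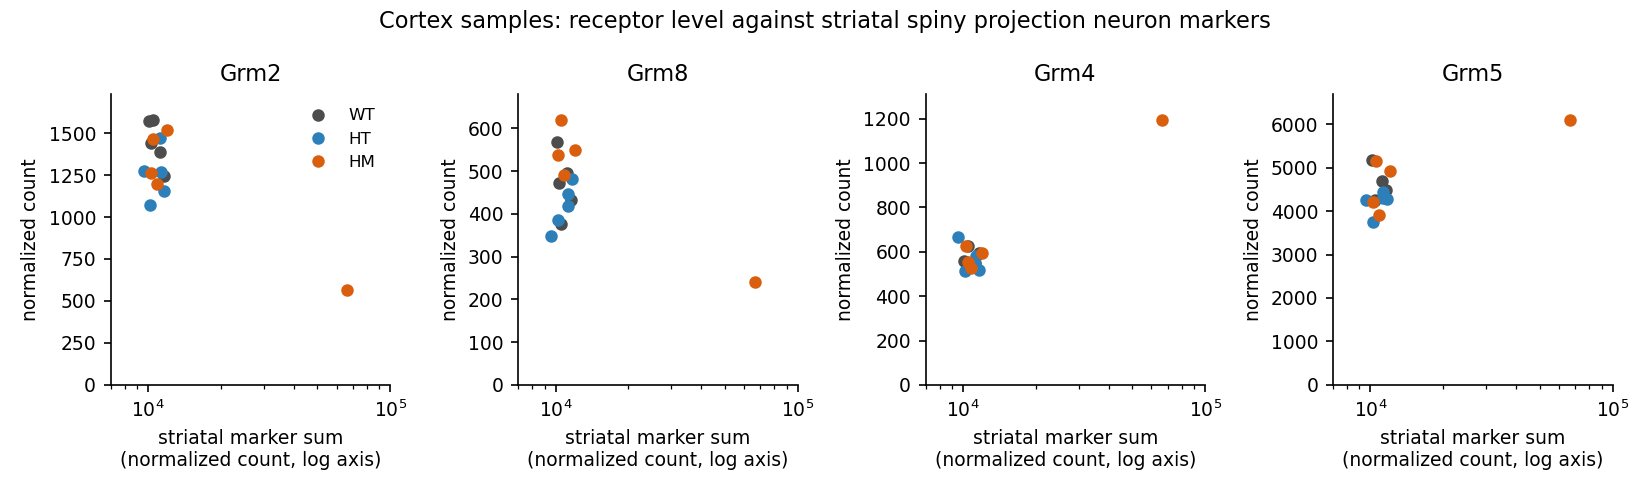
Normalized counts of Grm2, Grm8, Grm4 and Grm5 (y axes, from 0) against the summed normalized count of 14 striatal spiny projection neuron markers (x axis, log scale) in the 15 cortex samples, 1 point per sample, coloured by genotype. Cortex HM replicate 2 is the single point near 66465 on the x axis, low for Grm2 and Grm8 and high for Grm4 and Grm5.

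To ask how the receptors are distributed between regions, the WT samples were compared. Grm2 was nearly absent from the striatum, where Grm4 and Grm5 were highest, and Grm8 was a mainly cortical transcript. All 6 genes differed between WT striatum and WT cortex (4 higher and 2 lower in the striatum), and 59.3% of all 16708 genes tested did. All 6 pairs of groups were free of overlap, against 46.3% of genes. Between hippocampus and cortex 4 of 6 differed (1 higher and 3 lower in the hippocampus), against 46.6% of genes, and 3 did not overlap, against 32% of genes. Between hippocampus and striatum 6 of 6 differed (1 higher and 5 lower in the hippocampus), against 56.1% of genes, and 5 did not overlap, against 38.5% of genes. Differences between these regions were common over all genes, so the counts say less than the sizes that follow. All region tests are limma on log2(value + 1) with Benjamini-Hochberg adjustment over all genes, called at an adjusted p under 0.05.

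**Figure D2:**
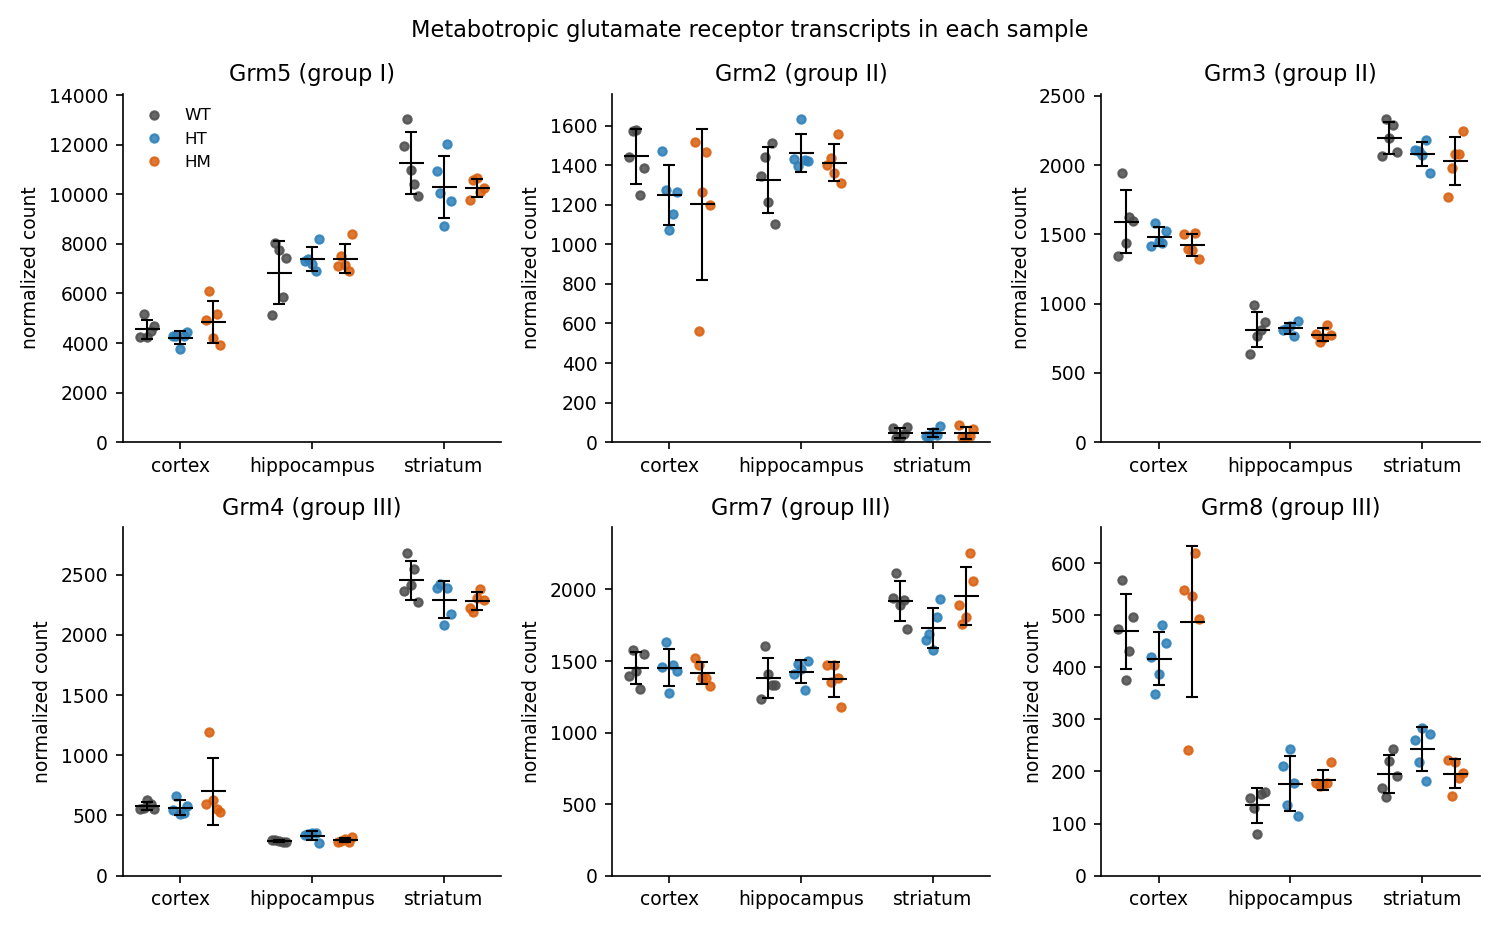
Normalized counts of the 6 receptor genes (y axes, from 0) in 45 samples, by region (x axis) and genotype (colour), 1 point per sample, with black bars for the mean and SD of 5 samples. Grm2 is close to 0 in every striatal sample and Grm4 is highest there, while WT, HT and HM points of a region mostly intermix.

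Grm5, the group I gene, had normalized counts of 4242.4, 5169.8, 4251.6, 4476.0 and 4681.3 in the 5 WT cortex samples. In WT hippocampus they were 5137.3, 8024.7, 7762.0, 5869.0 and 7433.8, and in WT striatum 11958, 13026, 10988, 10419 and 9923.4. Every striatal sample was thus above every hippocampal and cortical one, whereas the lowest hippocampal sample lay just below the highest cortical one. The striatum exceeded the cortex by a log2 difference of 1.3 ± 0.10 (SE), or 2.46-fold (adjusted p = 5.94e-15, limma), and the hippocampus exceeded the cortex by 0.57 ± 0.10 (adjusted p = 6.93e-06). The hippocampus was below the striatum by a log2 difference of -0.73 ± 0.10 (adjusted p = 3.01e-08).

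Grm2, a presynaptic group II receptor gene, had normalized counts of 1442.3, 1571.1, 1577.8, 1247.0 and 1384.9 in WT cortex and 1343.3, 1441.7, 1214.6, 1513.2 and 1101.5 in WT hippocampus. In WT striatum it gave only 70.6, 19.9, 21.4, 39.5 and 76.1. The cortical and hippocampal ranges overlapped, and the striatal samples lay far below both. The striatal level was 0.0279 times the cortical one (log2 difference -5.16 ± 0.30, adjusted p = 1.26e-18, limma), and the hippocampal level was 32.7 times the striatal one (5.03 ± 0.30, adjusted p = 1.87e-18). Hippocampus and cortex did not differ detectably (-0.13, 95% confidence interval -0.74 to 0.48, adjusted p = 0.749). That interval rests on 1 spread over all 9 groups, which takes in the widely scattered striatal values. With only the groups compared in the fit, the limma adjusted p was 0.282.

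The spread of Grm2 was also widest in the striatum, with a coefficient of variation of 58.5% in WT against 9.56% in WT cortex. Over the 15 striatal samples it ran from 19.9 to 88.2. The summed cortical projection neuron markers ran from 6396 to 10373 in the same samples, and their relation to Grm2 on log2 scales was weak (Pearson r = 0.301, permutation p = 0.274, and Spearman rho = 0.264, permutation p = 0.340, two-sided, 1 relation computed). Without the 2 samples farthest from the median marker sum, r was 0.466 over 13 samples, and with group means subtracted it was 0.394 over all 15. The mean marker sum was 7950.2 in WT striatum and 24557 in WT cortex, a far smaller drop than that of Grm2. The source of the striatal Grm2 values was not tested.

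Grm3, the second group II gene, was highest in the striatum and lowest in the hippocampus. Its normalized counts were 2066.6 to 2331.2 in WT striatum, 1345.0 to 1942.6 in WT cortex and 638.0 to 987.2 in WT hippocampus, and no range overlapped another. The striatum exceeded the cortex by a log2 difference of 0.47 ± 0.08 (1.39-fold, adjusted p = 1.45e-06, limma) and the hippocampus was below the cortex by -0.97 ± 0.08 (adjusted p = 6.54e-14). The 12 astrocyte markers summed to 58260 to 62625 in the striatum, 63055 to 71005 in the cortex and 69931 to 74548 in the hippocampus, and their part in the Grm3 values was not tested. Within a sample, the ratio of Grm2 to Grm3 per kilobase had a median of 0.561 in WT cortex, 1.03 in WT hippocampus and 0.0112 in WT striatum.

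Grm4, a group III gene known from striatal output terminals, had normalized counts of 2363.1, 2682.2, 2412.1, 2551.3 and 2269.9 in WT striatum. The WT cortex gave 552.4, 560.6, 626.8, 595.6 and 550.5, and the WT hippocampus 300.2, 296.3, 286.7, 276.9 and 276.8. The 3 sets were clearly separate and narrow, with a coefficient of variation of 3.76% to 6.61%. Log2 differences were 2.09 ± 0.12 for striatum against cortex (4.25-fold, adjusted p = 2.38e-19, limma) and -1.0 ± 0.12 for hippocampus against cortex (adjusted p = 9.31e-10). Hippocampus against striatum gave -3.09 ± 0.12 (adjusted p = 2.18e-25).

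Grm7, a group III receptor gene of release sites, varied least between regions. Its WT normalized counts were 1726.2 to 2116.8 in the striatum, 1301.9 to 1574.1 in the cortex and 1232.2 to 1607.9 in the hippocampus. Only the striatum stood out, by 0.41 ± 0.07 on the log2 scale over the cortex (1.32-fold, adjusted p = 7.66e-06, limma) and with the hippocampus below it by -0.47 ± 0.07 (adjusted p = 4.82e-07). Hippocampus against cortex gave -0.07 (95% confidence interval -0.22 to 0.08, adjusted p = 0.460).

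Grm8, the third group III gene, had normalized counts of 473.3, 568.3, 375.5, 431.5 and 495.9 in WT cortex, 149.9, 129.1, 79.2, 156.0 and 161.2 in WT hippocampus and 168.9, 151.8, 220.6, 242.2 and 191.5 in WT striatum. Every cortical sample was above all others, and the hippocampal and striatal samples overlapped. Against the cortex, log2 differences were -1.27 ± 0.20 in the striatum (adjusted p = 4.52e-07, limma) and -1.82 ± 0.20 in the hippocampus (adjusted p = 2.29e-10). The hippocampus was also below the striatum by -0.55 ± 0.20 (adjusted p = 0.0165), but this call was lost without hippocampus WT replicate 3 (-0.37, adjusted p = 0.105) or without striatum WT replicate 4 (-0.47, adjusted p = 0.0562).

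To compare levels between genes, normalized counts were divided by the length of the longest coding transcript. In WT cortex Grm5 (567 ± 47.7 per kilobase, SD, n = 5) and Grm3 (522 ± 74.8) led with overlapping ranges, followed by Grm7 (345 ± 26.7) and Grm2 (307 ± 29.3), which also overlapped, and by Grm4 (125 ± 7.20) and Grm8 (122 ± 18.7), which did too. In WT hippocampus Grm5 (851 ± 158) stood well above Grm7 (330 ± 33.5), Grm2 (281 ± 35.4) and Grm3 (267 ± 42.4), 3 genes whose neighbours overlapped, and Grm4 (62.4 ± 2.34) and Grm8 (35.0 ± 8.70) were lowest. In WT striatum the order was Grm5 (1400 ± 154), Grm3 (720 ± 38.1), Grm4 (533 ± 35.2), Grm7 (457 ± 33.1), Grm8 (50.6 ± 9.57) and Grm2 (9.66 ± 5.65), and only Grm4 and Grm7 overlapped.

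Summed over the 6 genes, the WT level per kilobase was 1988 ± 162 (cortex), 1825 ± 213 (hippocampus) and 3170 ± 224 (striatum). Grm5 made up 28.5%, 46.6% and 44.1% of these sums. Grm2 gave 15.4%, 15.4% and 0.305%, and Grm3 26.2%, 14.6% and 22.7%. Grm4 rose from 6.30% in the cortex and 3.42% in the hippocampus to 16.8% in the striatum. With the union of all exons as length, Grm5 gave 27.0%, 44.5% and 42.5%, Grm3 then had the largest share in the cortex (31.6%), and Grm8 there fell from 6.12% to 2.87%. By that length Grm2 passed Grm7 in the cortex (17.9% against 14.9%). In the hippocampus Grm2 (18.0%) and Grm3 (17.8%) both passed Grm7 (15.7%).

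**Figure D3:**
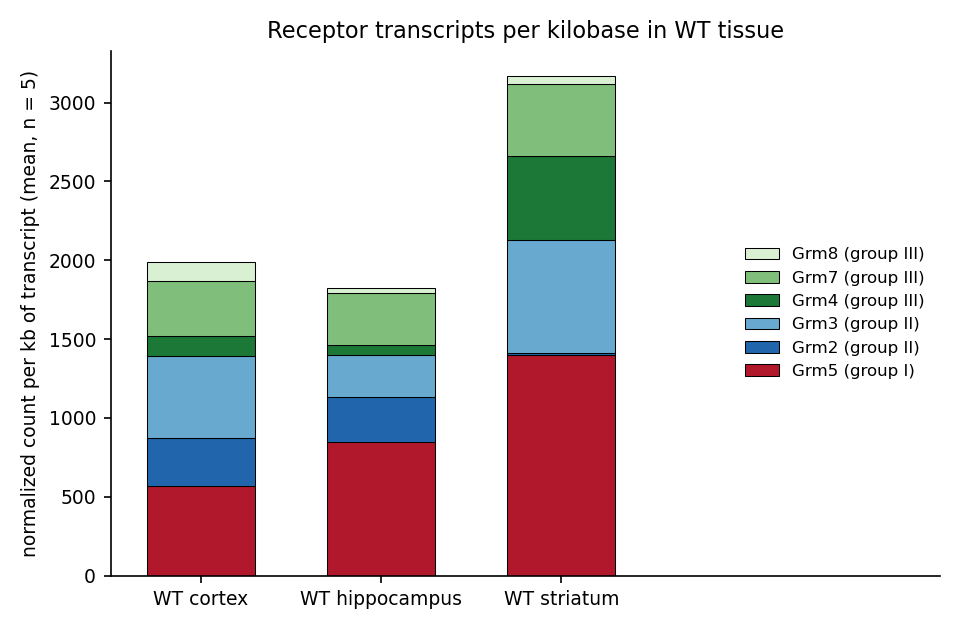
Mean normalized count per kilobase of the longest coding transcript (y axis, from 0, n = 5) in WT cortex, hippocampus and striatum (x axis), stacked by gene and coloured red for group I, blue for group II and green for group III. The striatal bar is tallest, at 3170, and its Grm2 part, 9.66, is barely visible.

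To test whether loss of Shank3 exons 14 to 16 was accompanied by a change of the receptors, HT, HM and WT samples were compared within each region. None of the 6 genes passed in any of the 9 comparisons, which share samples with each other. In the cortex 0 of 6 were called (limma) for HT against WT, where 0% of all genes were, for HM against WT, where 0.0121% were, and for HM against HT, where 0.00606% were. In the hippocampus 0 of 6 were called for HT against WT (0.00603% of all genes), HM against WT (0.00603%) and HM against HT (0.00603%). In the striatum 0 of 6 were called for HT against WT (0.00607%), HM against WT (0.182%) and HM against HT (0.14%). So few genes passed at all that a count of 0 among 6 is near the background. At an unadjusted p under 0.05, limma gave 1 gene each for hippocampus HT against WT (Grm4), hippocampus HM against WT (Grm8), striatum HT against WT (Grm8) and striatum HM against HT (Grm7), where 5.26%, 4.73%, 7.43% and 6.49% of all genes did, and 0 genes in the other 5 comparisons. Of 54 two-sided exact permutation tests, 2 had an unadjusted p under 0.05.

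Sizes were small. Over the 36 differences of HT or HM from WT, log2 values lay between -0.34 (Grm2, cortex HM) and 0.48 (Grm8, hippocampus HM). Group ranges separated in 1 of the 36, the hippocampal Grm8 of HM, against a background of 0.736% of genes in that comparison. The others overlapped, where 0.63% (cortex HT), 0.8% (cortex HM), 0.797% (hippocampus HT), 0.971% (striatum HT) and 1.86% (striatum HM) of genes were separate from WT.

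Grm8 in the hippocampus was the single separated case. Its normalized counts were 149.9, 129.1, 79.2, 156.0 and 161.2 in WT, 210.7, 135.9, 242.8, 178.1 and 113.8 in HT, and 177.4, 172.8, 175.7, 177.6 and 218.2 in HM. All 5 HM samples were above all 5 WT samples, the nearest values being 161.2 and 172.8, and the HT samples, at 113.8 to 242.8, overlapped with both. The HM log2 difference was 0.48 ± 0.20 (1.40-fold, 95% confidence interval 0.05 to 0.91, limma adjusted p = 0.920, exact permutation p = 0.00794, the smallest that 5 against 5 allow). HT gave 0.37 ± 0.20 (limma adjusted p = 0.926). Without hippocampus WT replicate 3, the lowest sample, these differences were 0.30 and 0.19. The 12 cortical projection neuron markers, of which none passed after adjustment, had a median log2 difference from WT of 0.14 in HM (3 of 12 at an unadjusted p under 0.05) and 0.25 in HT (5 of 12), and summed to 10558 to 12406 in WT, 11248 to 12908 in HM and 11935 to 12947 in HT. The 11 pyramidal neuron markers summed to 21370 to 25670 in WT and 21528 to 22890 in HM, the 10 dentate granule neuron markers to 17678 to 21228 and 18681 to 20171, and the 10 choroid plexus markers to 3444 to 128710 and 6642 to 63707. In HT the choroid plexus markers had a median log2 difference from WT of -1.41 (1 of 10 at an unadjusted p under 0.05) and summed, in the order of the Grm8 values above, to 2074.7, 35493, 1505.7, 2272.2 and 33677, so that the 2 HT samples with the highest sums had the lowest Grm8. The part of these markers in the Grm8 values was not tested. In the cortex the HM log2 difference of Grm8 was 0.0011 (95% confidence interval -0.40 to 0.41) with cortex HM replicate 2 and 0.24 without it, and in the striatum it was 0.013 (-0.30 to 0.33).

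Striatal Grm8 of HT had normalized counts of 260.5, 217.7, 282.9, 180.8 and 271.9, beside 168.9, 151.8, 220.6, 242.2 and 191.5 in WT and 221.6, 153.6, 219.0, 186.6 and 197.6 in HM. The HT values overlapped with both other genotypes. Against WT the log2 difference was 0.32 ± 0.15 (1.24-fold, limma unadjusted p = 0.0478, adjusted p = 0.670), and without HT replicate 5 it was 0.27. In the same comparison 11 of 12 oligodendrocyte markers had an unadjusted p under 0.05 (median log2 difference 0.36, summed levels 215240 to 364810 in HT and 197250 to 262000 in WT), as did 5 of 12 astrocyte markers (median 0.10) and 1 of 10 choroid plexus markers (median 1.299). None of these passed after adjustment, and their part in the Grm8 values was not tested.

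The remaining group III genes gave the following values. Hippocampal Grm4 was 335.2, 345.7, 354.3, 356.1 and 269.0 in HT, against 276.8 to 300.2 in WT and 279.9 to 320.9 in HM. Thus 4 HT samples were above all WT samples and 1 was below them. The HT log2 difference was 0.20 ± 0.08 (1.15-fold, limma adjusted p = 0.926, exact permutation p = 0.0476), and HM gave 0.04 ± 0.08. The choroid plexus sums of these HT samples are those given for Grm8, with 33677 in the sample at 269.0 and 35493 in the sample at 345.7, and the cortical projection neuron markers are those given there too, and their part in the Grm4 values was not tested. In the striatum Grm4 was 2082.6 to 2425.2 in HT and 2190.3 to 2380.9 in HM, with log2 differences from WT of -0.10 ± 0.06 and -0.11 ± 0.06 (adjusted p = 0.737 and 0.720). Striatal Grm7 was 1579.0 to 1930.4 in HT, 1726.2 to 2116.8 in WT and 1760.4 to 2256.1 in HM, with log2 differences from WT of -0.15 ± 0.07 in HT and 0.02 ± 0.07 in HM, and of HM from HT of 0.17 ± 0.07 (unadjusted p = 0.0307, adjusted p = 0.724, limma). In the comparison of HM with HT, 4 of 12 cortical projection neuron markers had an unadjusted p under 0.05 (median log2 difference 0.46, summed levels 7915.7 to 10373 in HM and 6396.1 to 8696 in HT). So did 5 of 12 interneuron markers (median 0.14, 44439 to 48793 and 37914 to 44815), 4 of 12 astrocyte markers (median -0.13, 58631 to 62949 and 58385 to 66686) and 4 of 8 oligodendrocyte precursor markers (median -0.08, 10008 to 10898 and 10277 to 11068), and their part in the Grm7 values was not tested. Of the markers in these comparisons 1 passed after adjustment, the cortical projection neuron marker Lamp5, named after its values were seen, which was higher in striatal HM than in HT (0.36 ± 0.07, adjusted p = 0.0385, limma) and than in WT (0.53 ± 0.07, adjusted p = 0.00178). In cortex and hippocampus the 4 differences of Grm7 from WT lay between -0.03 and 0.05.

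Grm5, linked to SHANK3 by HOMER, had normalized counts of 10924, 10048, 8732.3, 12026 and 9733.5 in HT striatum and 9752.4, 10590, 10647, 10113 and 10247 in HM striatum. Both sets overlapped with the WT range of 9923.4 to 13026. The log2 differences were -0.13 ± 0.08 for HT (0.913-fold, 95% confidence interval -0.30 to 0.04, adjusted p = 0.764, limma) and -0.13 ± 0.08 for HM (0.916-fold, -0.30 to 0.04, adjusted p = 0.797). The HT value was -0.074 without striatum HT replicate 3 and -0.19 without HT replicate 4. The oligodendrocyte markers of this comparison are those given for striatal Grm8 of HT. In HM the 12 interneuron markers summed to 44439 to 48793, against 39867 to 41679 in WT. Of these, 3 of 12 had an unadjusted p under 0.05 (limma) and none passed after adjustment. The part of these markers in the striatal Grm3, Grm4 and Grm5 values was not tested. In the hippocampus the HT and HM differences of Grm5 were both 0.13 ± 0.10, where 2 WT samples, at 5137.3 and 5869.0, lay below all HT and HM samples and the other 3 WT samples did not. Without hippocampus WT replicate 1 these differences were 0.032 and 0.033. In the cortex HT gave -0.12 ± 0.10, or -0.076 without cortex HT replicate 3, and HM gave 0.08 ± 0.10.

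For the group II genes, cortical Grm2 was 1472.5, 1276.2, 1070.2, 1152.3 and 1265.3 in HT and 1516.4, 562.9, 1264.5, 1465.4 and 1198.2 in HM. Against WT the log2 difference was -0.21 ± 0.19 in HT (adjusted p = 0.9997, limma, and -0.16 without cortex HT replicate 3) and -0.34 ± 0.19 in HM (adjusted p = 0.880). The SE is shared by the 3 genotypes and takes in cortex HM replicate 2. Coefficients of variation were 9.56% in WT, 12.2% in HT and 31.7% in HM. For HT the exact permutation p was 0.0794, and the limma adjusted p was 0.996 with only WT and HT in the fit. Without cortex HM replicate 2, the HM difference of Grm2 was -0.09, that of Grm8 0.24, that of Grm4 -0.0050 in place of 0.21, and that of Grm5 -0.011 in place of 0.08, so 3 of these shrank and that of Grm8 grew. Grm3 gave -0.14 in place of -0.15 and Grm7 -0.046 in place of -0.032. In the hippocampus Grm2 differed from WT by 0.15 ± 0.08 (HT) and 0.10 ± 0.08 (HM), and by 0.087 and 0.038 without hippocampus WT replicate 5. In the striatum the intervals were wide, with 0.10 (95% confidence interval -0.81 to 1.01, and -0.13 without HT replicate 5) in HT and 0.04 (-0.87 to 0.95) in HM. Grm3 gave 6 differences from WT between -0.15 (cortex HM, adjusted p = 0.878, and -0.074 without cortex WT replicate 2) and 0.03 (hippocampus HT, adjusted p = 0.973).

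**Figure D4:**
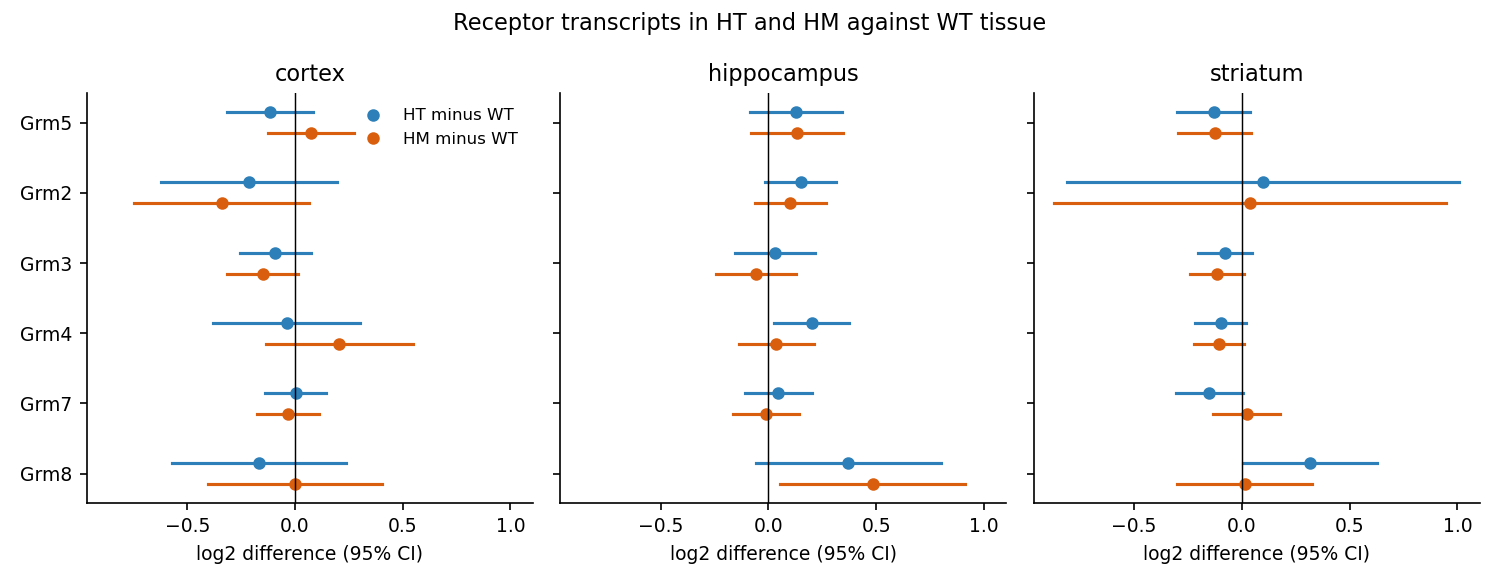
Log2 difference of HT (blue) and HM (orange) from WT (x axis, points, with lines for 95% confidence intervals from limma, n = 5 per group) for the 6 receptor genes (rows) in each region (panels). Nearly all intervals include 0, the widest are those of striatal Grm2, and those of hippocampal Grm4 in HT, hippocampal Grm8 in HM and striatal Grm8 in HT lie above 0 before adjustment.

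Whether the HM difference itself differed between regions was tested in the fit of all 45 samples. Again 0 of 6 genes passed (limma, and 0 of 6 at an unadjusted p under 0.05) for striatum against cortex, striatum against hippocampus and hippocampus against cortex, where 0.0539%, 0.0718% and 0% of all genes passed and 5.42%, 5.37% and 4.45% had an unadjusted p under 0.05. For Grm8 the HM difference in the hippocampus exceeded that in the cortex by 0.48 (95% confidence interval -0.08 to 1.05) with cortex HM replicate 2 and by 0.25 (-0.25 to 0.75) without it, and by 0.30 without hippocampus WT replicate 3.

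The partners of the receptors were followed through 4 gene lists. Of 25 Gq pathway partners of group I receptors, 10 were higher and 12 lower in WT striatum than in WT cortex, with a median log2 difference of -0.16, beside 0.01 over all genes, of which 59.3% differed between these regions. The 2 with the largest difference were Homer2, a scaffold of group I receptors (-2.27 ± 0.12, adjusted p = 3.15e-20, limma), and Caln1, a calcium-binding protein gene (1.88 ± 0.11, adjusted p = 1.06e-18). Of 33 Gi/o pathway partners of group II and III receptors, 12 were higher and 20 lower in the striatum (median -0.32), against the same 59.3% of all genes. Rgs9, which speeds the turn-off of Gi/o signals (6.07 ± 0.37, adjusted p = 3.60e-18), and Gng7, a G protein gamma subunit gene (4.41 ± 0.23, adjusted p = 4.92e-20), differed most, and Rgs9 is itself a striatal marker on the list used above.

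Of 11 scaffold and trans-synaptic partners of group III receptors, 5 were higher and 3 lower in the striatum (median 0.07), led by Elfn1, whose protein recruits group III receptors across the synapse (-1.15 ± 0.13, adjusted p = 5.53e-10, limma), and Ppp1cc, a phosphatase subunit gene (0.80 ± 0.06, adjusted p = 9.44e-15). Of 21 genes of glutamate supply and uptake, 5 were higher and 12 lower (median -0.27), led by the vesicular glutamate transporter genes Slc17a7 (-4.21 ± 0.59, adjusted p = 5.45e-08) and Slc17a6 (-4.02 ± 0.41, adjusted p = 2.01e-11), so that the 2 largest differences of this list had the direction of Grm2. Both counts stand beside 59.3% of all genes. Between WT hippocampus and WT cortex, the 4 lists in this order had 8, 7, 4 and 4 genes higher and 13, 16, 3 and 6 lower in the hippocampus, where 46.6% of all genes differed.

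Genotype left these lists below the threshold. No gene of the 4 lists passed in any of the 9 genotype comparisons (limma). At an unadjusted p under 0.05 each comparison held 0 to 4 of the 25 Gq partners, 0 to 3 of the 33 Gi/o partners, 0 to 2 of the 11 group III partners and 0 to 3 of the 21 supply and uptake genes, where 2.09% to 7.43% of all genes did. Medians of the lists stayed between -0.07 and 0.08 on the log2 scale.

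The genes whose pattern was most like that of each receptor were ranked by Pearson correlation of log2 values over the 45 samples, among 12470 genes. These points share region, library and normalization, so the values are a description. For Grm2 they were Kcnj3, a channel subunit opened by Gi/o-coupled receptors (r = 0.991), and Adra1d, an adrenergic receptor gene (0.990). For Grm3 they were Itpr1, the calcium release channel gene (0.982), Rasgef1b (0.977) and Dlg1, a synaptic scaffold gene (0.977). For Grm4 they were Ptpn5, a striatum-enriched phosphatase gene (0.995), Arpp21, which encodes a phosphoprotein of dopamine-innervated neurons (0.995), and Meis2, a transcription factor gene (0.992). For Grm5 they were Dcc, a netrin receptor gene (0.975), Cttnbp2 (0.972) and Ripor2 (0.971). Grm7, with r of 0.886 for B230334C09Rik and 0.886 for Diaph2, and Grm8, with 0.916 for Dpp10, 0.915 for Plcb4 and 0.913 for Susd2, had less close neighbours.

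With the mean of each region and genotype removed, the nearest genes were Adra1d (r = 0.815) and Fam19a1 (0.800) for Grm2, Ctdspl2 (0.744) and Mdga2 (0.741) for Grm3, and Dgkb (0.835) and Akap11 (0.818) for Grm5. Without cortex HM replicate 2 these 6 were between 0.750 and 0.819. For Grm4 they were Prkch (0.885) and Drd1, the D1 dopamine receptor gene (0.845), which fell to 0.544 and 0.370 without that library. For Grm8 they were Cobl (0.642) and Olfm2 (0.622), which fell to 0.463 and 0.462, and for Grm7 B4galt6 (0.587) and Med14 (0.578).

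Among the receptors themselves, Grm2 and Grm4 ran opposite over the 45 samples (r = -0.936) and Grm3 and Grm4 together (0.905), as their regional levels imply. With group means removed, the highest values were 0.540 for Grm3 and Grm5, 0.464 for Grm3 and Grm7 and 0.425 for Grm5 and Grm7, which were 0.604, 0.470 and 0.425 without cortex HM replicate 2. The values of -0.431 for Grm2 and Grm4 and -0.435 for Grm4 and Grm8 became -0.233 and 0.028 without it.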

How the data were processed

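Stranded mRNA libraries of 45 samples were sequenced by the authors. Per their methods, reads were quasi-mapped with Salmon, imported with tximport and normalized with DESeq2, and the submitters' processing notes name Salmon 1.1.0, DESeq2 1.26.0, R 3.6.2 and GRCm38. The deposited signal values are these normalized counts. Whole reads could not be recovered (8.68% to 14.2% of low values lay within 0.05 of a whole multiple), so depth is unknown, intervals rest on the spread between samples, and no count model was run. Columns headed KI were taken as HM, after the authors' own headings of the same values. The paper's results give 5 mice per group for the 3 regions, but the labels do not tie samples to animals. The p values thus measure the spread between these samples, and tests between regions treat samples that may share a mouse as independent.

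Tests used limma 3.58.1 in R 4.3.3, with an intensity trend in eBayes, on log2(value + 1) of genes that averaged at least 10, with 1 fit of 15 samples per region for genotypes (16507, 16571 and 16482 genes in cortex, hippocampus and striatum) and 1 fit of 9 groups for regions and differences of effects. P values were adjusted by Benjamini-Hochberg over all genes tested, with a threshold of 0.05. Exact permutation tests over samples, for single genes, were not adjusted. The test was also run on simulated data with independent noise, the same spread in every group and no outlying library. Its power to find small changes in the real samples is not known from that run. Lengths came from GENCODE M21 and promoters from RefSeq. Python 3.11.15 and scipy 1.17.1 were used.

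The receptor genes and lists were chosen with earlier results of these data known. Of the 4 pathway lists, those genes that passed a genotype comparison and the 2 with the largest WT difference between striatum and cortex were named, and the 3 (45 samples) or 2 (group means removed) nearest genes of each receptor with a mean of at least 100, apart from some that are not reported here. Of 26 listed Gq partners, 25 were matched. Marker genes were summed per sample. Alternatives are given in the closing section.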

Additional observations from a re-analysis of the deposited data

Results flagged for a closer look

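In each set of 5 samples, the sample farthest from its neighbour was compared with the range of the set (Dixon's ratio, above 0.71). Of 54 sets of a receptor gene, region and genotype, 5 held such a sample, and chance gives about 1 in 20. Grm4 was 1194.2 in cortex HM replicate 2, next to 625.7 in the nearest sample, in the library with a striatal marker sum of 66465. Grm8 was 218 in hippocampus HM replicate 5, next to 178, within the group that lay above all WT samples. Grm4 was 269 in hippocampus HT replicate 5, next to 335, and is the only HT sample below the WT range. Grm2 was 1631.8 in hippocampus HT replicate 3, next to 1428.9. Grm5 was 3758.9 in cortex HT replicate 3, next to 4263.9, in the library with a choroid plexus marker sum of 1204.5. No receptor gene had an HM difference that passed the test between regions.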

How the results depend on the processing

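The number of receptor genes called was the same in all 15 comparisons under 8 alternatives (no intensity trend, quantile normalization, no filter, a mean of at least 100, pseudocounts of 0.1 and 10, the replicate block, only the groups compared) and on leaving out each sample of the groups compared, except that WT hippocampus against WT striatum gave 5 to 6. Over all genes, the alternatives called 12 to 39 in striatum HM against WT (30 in the report's test) and 3 to 28 in HM against HT (23), 0 to 22 (9) and 2 to 18 (12) for the striatal HM effect against cortex and hippocampus, and 0 to 2 in the other genotype comparisons. Leaving cortex HM replicate 2 out of the region fits, chosen after seeing the data, again gave 6, 4 and 6. Samples with the same number were not treated as pairs, since only 7 of 45 such pairs between genotypes (r of -0.119 to 0.150) and 16 of 45 between regions (-0.1 to 0.225) were over 0.1. Each sample had 5 candidates in the compared group, 1 of them with its own number. Closest to their own number were 12 of 45 samples between genotypes and 28 of 45 between regions, a hint from the data that numbers link regions. The region tests of the report do not use such a link. Under the replicate block 0 genes were called between genotypes and 6, 4 and 6 between regions. Single-gene values were recomputed where they are given. Among these, quantile normalization turned Grm8 of cortex HM to -0.011. Leaving out 1 sample turned 11 uncalled differences from WT, whose values then ran from -0.0050 to 0.29 (Grm4) and -0.011 to 0.15 (Grm5) in cortex HM, -0.10 to 0.24 (Grm8) there, and -0.040 to 0.049 (Grm7) in cortex HT. In the hippocampus they ran from -0.055 to 0.10 (Grm3, HT), -0.14 to 0.017 (Grm3, HM) and -0.051 to 0.044 (Grm7, HM). In the striatum they ran from -0.14 to 0.34 (Grm2, HT), -0.24 to 0.27 (Grm2, HM), -0.031 to 0.059 (Grm7, HM) and -0.071 to 0.097 (Grm8, HM). Counting these, 30 of the 36 differences from WT moved by over 1.5 times on leaving out 1 sample, and none was called. The causes were not tested. Depth is unknown, and the widest intervals of a genotype difference were those of striatal Grm2.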
